A study of Mus musculus with 10 samples.

Results

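Migrating and newborn neuron genes are described here as a set of 10: Dcx, Sox4, Sox11, Neurod1, Neurod2, Neurod6, Elavl2, Elavl4, Eomes and Igfbpl1. They were chosen by name, and each matched 1 of the 55471 gene identifiers in the deposited table. All 10 passed the count minimum (10 or more counts in at least 5 libraries) and were among the 17101 genes tested. The libraries came from whole brains of wild-type Swiss Webster mouse pups given as neonatal day 5, and every pup had a hypoxic-ischemic brain injury, in which blood flow and oxygen are cut off. The 5 untreated pups (mice 1 to 5) had the injury alone. The other 5 pups (mice 6 to 10) had the injury and allopregnanolone, a steroid derived from progesterone that enhances GABA-A receptors. No uninjured group was analysed here, so each comparison is between injured brains. The sources used here give no dose, litter or time from injury to collection, and they leave unclear which step day 5 refers to. The level of a gene is given as CPM, the count relative to the library size after TMM scaling, with 1 library per pup.

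Neurons are born from dividing progenitors, pass through a short phase as intermediate progenitors or neuroblasts, migrate to their place and then mature. Each step switches on its own regulators. T-box and basic helix-loop-helix factors such as Eomes and the Neurod proteins act in the passage from progenitor to neuron, the SoxC factors Sox4 and Sox11 turn on neuronal genes in cells that have just left the cell cycle, doublecortin (Dcx) binds the microtubules of moving cells, and the Elavl proteins bind neuronal messenger RNAs. In the rodent brain after birth such cells are found in the dentate gyrus, the cerebellum and the subventricular zone, from which young interneurons move to the olfactory bulb.

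RefSeq promoter windows of GRCm38.p6, each with 250 bases before and 50 bases after a transcription start, were found for 9 of the 10 genes, all but Igfbpl1. Shown are those of Dcx, the gene with the largest change past the test, of Sox4 and Sox11, which both fell, and of Neurod6 and Neurod2, which parted. Capitals mark matches to the E-box CANNTG of basic helix-loop-helix factors and to AACAAAG and AACAATG of SOX factors, searched on both strands, where CAGATG and CAGCTG are 2 forms of the E-box.

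Dcx, chrX:143933075-143933374, minus strand: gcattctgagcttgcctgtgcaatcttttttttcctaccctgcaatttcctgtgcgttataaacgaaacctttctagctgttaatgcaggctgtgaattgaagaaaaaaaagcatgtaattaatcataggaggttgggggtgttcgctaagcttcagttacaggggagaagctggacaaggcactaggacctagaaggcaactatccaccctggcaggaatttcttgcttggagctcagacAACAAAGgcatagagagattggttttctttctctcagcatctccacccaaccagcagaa
Sox4, chr13:28953650-28953949, minus strand: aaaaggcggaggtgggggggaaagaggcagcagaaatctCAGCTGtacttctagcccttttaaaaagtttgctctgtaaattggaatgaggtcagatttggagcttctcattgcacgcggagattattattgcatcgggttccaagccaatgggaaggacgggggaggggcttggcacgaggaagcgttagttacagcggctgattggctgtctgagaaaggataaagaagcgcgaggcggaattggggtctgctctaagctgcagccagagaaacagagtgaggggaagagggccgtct
Sox11, chr12:27342669-27342968, minus strand: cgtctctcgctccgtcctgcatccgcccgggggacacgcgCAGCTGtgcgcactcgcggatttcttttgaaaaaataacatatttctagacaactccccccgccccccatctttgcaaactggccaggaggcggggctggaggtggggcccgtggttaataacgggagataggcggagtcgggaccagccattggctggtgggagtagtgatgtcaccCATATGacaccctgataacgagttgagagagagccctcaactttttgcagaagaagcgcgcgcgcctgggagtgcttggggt
Neurod6, chr6:55681214-55681513, minus strand: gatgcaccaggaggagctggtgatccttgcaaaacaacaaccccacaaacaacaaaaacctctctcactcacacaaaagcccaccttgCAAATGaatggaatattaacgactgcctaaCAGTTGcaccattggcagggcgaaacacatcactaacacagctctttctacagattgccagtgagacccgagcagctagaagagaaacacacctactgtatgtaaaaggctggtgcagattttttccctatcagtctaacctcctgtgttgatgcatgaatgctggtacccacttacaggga
Neurod2, chr11:98329596-98329895, minus strand: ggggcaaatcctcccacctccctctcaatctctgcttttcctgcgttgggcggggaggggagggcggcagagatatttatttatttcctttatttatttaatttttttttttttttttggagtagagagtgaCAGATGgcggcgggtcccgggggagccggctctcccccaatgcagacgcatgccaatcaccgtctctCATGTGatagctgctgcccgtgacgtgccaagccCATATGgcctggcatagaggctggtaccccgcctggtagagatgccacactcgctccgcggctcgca

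The second of 2 Dcx windows held AACAAAG, starting 9 bases before the start site, and neither Dcx window held an E-box. The Sox4 and Sox11 windows each held a CAGCTG, 211 and 210 bases before the start. Neurod2 held 3 E-boxes, 1 of them CAGATG, and Neurod6 held 2, neither of them CAGATG nor CAGCTG. Of all 32851 windows of 300 bases, 72.3% held CANNTG, 17.2% CAGATG, 16.3% CAGCTG, 5.85% AACAAAG and 3.78% AACAATG on either strand. The matches describe the letters only.

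Library totals lay between 18656836 and 34270723 counts. Untreated libraries 3 and 4 stood apart from the other 8 in Tbx21 and Cdhr1, genes of mitral and tufted cells, the output neurons of the olfactory bulb. Tbx21 was at 3.72 and 2.59 CPM there and at 0.149 to 0.831 CPM in the other 8, and Cdhr1 at 76.5 and 81.6 against 12.3 to 27.0 CPM. The whole 4-gene mitral and tufted list, which includes Cdhr1, summed to 157 and 153 CPM in these libraries and to 54.0 to 122 CPM in the others. None of the 4 passed the test between the groups, and 2 had positive and 2 negative log2 fold changes. Untreated libraries 3 and 4 also had the lowest sums of the 10 myelin genes, 2027 and 2086 CPM. These sums were 3478 to 3905 CPM in untreated libraries 1, 2 and 5 and 6005 to 8113 CPM in treated libraries. Results that rest on these 2 libraries are given with and without them. Untreated libraries 1 to 3 also carry another name prefix than the other 7, so the prefix is in part tied to the group.

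With allopregnanolone 5 of the 10 genes fell and none rose. These were Dcx (1.82-fold lower), Neurod6 (1.51-fold), Sox4 (1.31-fold), Sox11 (1.28-fold) and Elavl2 (1.21-fold). The threshold was 0.05 on the Benjamini-Hochberg adjusted p of edgeR's quasi-likelihood test, which 11.3% of all genes passed, 4.65% as lower and 6.61% as higher. Treated libraries lay below every untreated library for 4 of the 10 genes, all but Sox11 of those that fell, against 4.2% of all genes, and above every untreated library for none, against 5.44%. The median log2 fold change was -0.38 over the 10 genes and -0.0046 over all genes. The members were proposed with results of these data known, so the counts describe the list and give it no independent support. In whole tissue, fewer cells of a type and less RNA per cell cannot be told apart.

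Without untreated libraries 3 and 4 the genes that fell numbered 4 of 10, with Sox11 no longer past the test (adjusted p = 0.190), against 0.743% of all genes lower. Without the 3 libraries of the other name prefix, which leaves 2 untreated libraries, Dcx and Sox4 passed, 2 of 10 against 0.133% of all genes, and the log2 fold changes of the 5 genes were -0.84, -0.61, -0.41, -0.32 and -0.37 in the order given above.

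**Figure D1:**
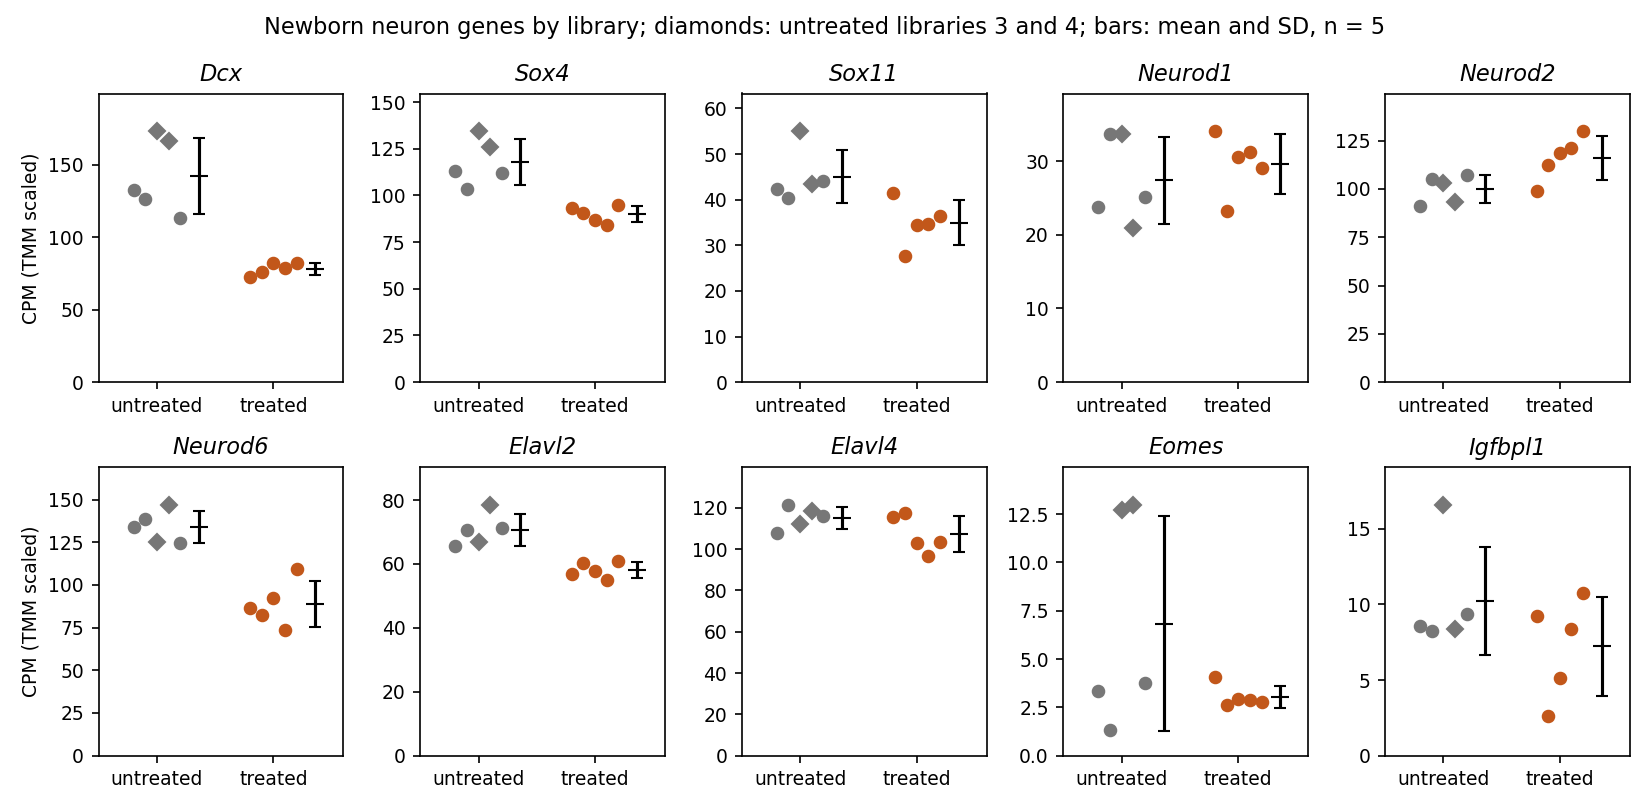
CPM of each of the 10 genes in each library (points, in order of mouse number) for 5 untreated (grey) and 5 treated (orange) pups, with the mean and SD of a group beside them. Diamonds mark untreated libraries 3 and 4, which held the 2 highest values of Dcx, Sox4 and Eomes, and the 2 groups do not overlap for Dcx, Sox4, Neurod6 and Elavl2.

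Dcx encodes doublecortin (ENSMUSG00000031285, GRCm38 chromosome X, 143855842 to 143933311, minus strand). It was at 133, 127, 173, 167 and 114 CPM in untreated libraries 1 to 5 and at 72.5, 76.2, 82.2, 79.0 and 82.3 CPM in treated libraries 6 to 10. All 5 treated libraries lay below all 5 untreated ones, and the treated values were much closer to each other. The means were 143 ± 26.1 and 78.4 ± 4.16 CPM (SD, n = 5 each), a log2 fold change of -0.86 (SE 0.10, adjusted p = 0.000434). Without untreated libraries 3 and 4 the log2 fold change was -0.67 (adjusted p = 0.00165). Dcx lies on the X chromosome, and 1 pup of each group had Y-linked genes near 0 (summed 0.0862 CPM in untreated library 2 and 0.863 CPM in treated library 10, against 80.3 to 105 CPM in the others). For Dcx these were the next to lowest untreated library (127 CPM) and the highest treated library (82.3 CPM), and with the Y-linked mean as a covariate Dcx had an adjusted p = 0.000912.

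The SoxC transcription factors also fell, by smaller amounts. Sox4 (ENSMUSG00000076431, chromosome 13, 28948919 to 28953713, 1 exon) was at 113, 104, 134, 126 and 112 CPM untreated and at 93.1, 90.4, 87.1, 84.1 and 94.8 CPM treated, with no overlap. Its mean went from 118 ± 12.3 to 89.9 ± 4.35 CPM (SD, n = 5 each; log2 fold change -0.39, SE 0.07, adjusted p = 0.00400), and without untreated libraries 3 and 4 the log2 fold change was -0.29 (adjusted p = 0.0291). A non-coding gene on the opposite strand covers 54.6% of the Sox4 exon, and whether the counting used strand is not stated in the sources used here, so reads of the pair may be mixed.

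Sox11 (ENSMUSG00000063632, chromosome 12, 27334264 to 27342574) was at 42.3, 40.4, 55.0, 43.4 and 44.2 CPM untreated and at 41.5, 27.7, 34.5, 34.7 and 36.5 CPM treated. Treated library 6 lay above the lowest untreated library, and untreated library 3 was well above its group. The log2 fold change was -0.36 (SE 0.10, adjusted p = 0.0362). Sox11 missed the threshold with untreated library 3 or 4, or treated library 7, 8, 9 or 10 left out (adjusted p = 0.0830, 0.0642, 0.0672, 0.0646, 0.0663 and 0.0577 in that order). Sox12, the other member of the SoxC group, went from 111 ± 7.38 to 86.4 ± 9.29 CPM (SD, n = 5 each; log2 fold change -0.37, SE 0.07, adjusted p = 0.00777). Without untreated libraries 3 and 4 the log2 fold change of Sox12 was -0.38 and its adjusted p in edgeR's test 0.0528.

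The 3 Neurod genes, basic helix-loop-helix transcription factors of differentiating and excitatory neurons, did not move as a family. Neurod6, which marks excitatory neurons of cortex and hippocampus (ENSMUSG00000037984, chromosome 6, 55677822 to 55681263), was at 134, 138, 125, 147 and 125 CPM untreated and at 86.6, 82.3, 92.6, 73.8 and 109.5 CPM treated. Every treated library was below every untreated one, and untreated libraries 3 and 4 were the next to lowest and the highest of their group. The log2 fold change was -0.59 (SE 0.09, adjusted p = 0.00173) and -0.58 without untreated libraries 3 and 4 (adjusted p = 0.0184).

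Neurod2, its close relative in the same neurons (ENSMUSG00000038255, chromosome 11, 98325415 to 98329648), was at 91.0, 105, 103, 93.2 and 107 CPM untreated and at 99.1, 112, 119, 121 and 130 CPM treated. Treated libraries 7 to 10 were above every untreated library, and treated library 6 was within the untreated range. The log2 fold change of 0.22 (SE 0.07) missed the threshold in edgeR's test (adjusted p = 0.0660) and passed it in DESeq2 (0.0356) and with treated library 6 left out (0.0194). Neurod1, a factor of dentate and cerebellar granule cells (ENSMUSG00000034701, chromosome 2, 79452521 to 79456751), was at 20.9 to 33.7 CPM untreated and at 23.2 to 34.1 CPM treated. The groups overlapped over nearly their whole range (log2 fold change 0.11, SE 0.13, adjusted p = 0.629). Neurod4 was scarce, with untreated libraries at 0.684 ± 0.183 CPM and treated libraries at 1.14 ± 0.544 CPM (SD, n = 5 per group; adjusted p = 0.193).

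Of the neuronal RNA-binding genes Elavl2 (ENSMUSG00000008489, chromosome 4, 91250763 to 91400785) was at 65.5, 70.8, 66.8, 78.6 and 71.1 CPM untreated and at 56.9, 60.4, 57.9, 54.9 and 61.0 CPM treated. The groups did not overlap, though the gap between them was only a few CPM. The log2 fold change was -0.28 (SE 0.06, adjusted p = 0.00831) and -0.25 without untreated libraries 3 and 4 (adjusted p = 0.0455). Elavl4 (ENSMUSG00000028546, chromosome 4, 110203722 to 110351909) was at 108 to 121 CPM untreated and at 96.8 to 117 CPM treated, with overlap (log2 fold change -0.10, SE 0.06, adjusted p = 0.280). Elavl3, the third neuronal member, stood at 470 ± 14.9 and 463 ± 21.6 CPM, and the ubiquitous Elavl1 at 53.5 ± 3.44 and 54.9 ± 3.21 CPM (SD, n = 5 each, untreated and treated). Their log2 fold changes were -0.02 (SE 0.05) and 0.04 (SE 0.06), neither past the threshold, and that of Elavl1 was -0.02 with library totals alone.

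Eomes, the T-box factor Tbr2 of intermediate progenitors that mitral and tufted cells and the unipolar brush cells of the cerebellum also express (ENSMUSG00000032446, chromosome 9, 118478212 to 118486132), was the scarcest member. It was at 3.36, 1.34, 12.7, 13.0 and 3.78 CPM untreated and at 4.06, 2.65, 2.93, 2.86 and 2.78 CPM treated, from 31 to 321 counts per library. Untreated libraries 3 and 4 were the only ones above every treated library, and they are the same libraries in which Tbx21 and Cdhr1 were high. The log2 fold change was -1.15 (SE 0.48, adjusted p = 0.137). It turned to 0.12 without untreated libraries 3 and 4 (adjusted p = 0.877), and was -0.19 with the mean of Tbx21 and Cdhr1 as a covariate (adjusted p = 0.763). Both settings were chosen after these 2 libraries were seen. Leaving out the 2 highest untreated libraries was bound to shrink the difference, so the values are a description. Whether mitral and tufted cells account for the Eomes level was not tested. Without untreated library 2, the lowest for Eomes, the log2 fold change was -1.42 and passed (adjusted p = 0.0353). Tbr1, the T-box factor that follows Eomes in cortical neurons, averaged 150 ± 17.1 CPM in untreated and 135 ± 28.3 CPM in treated libraries (SD, n = 5 per group; adjusted p = 0.461).

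**Figure D2:**
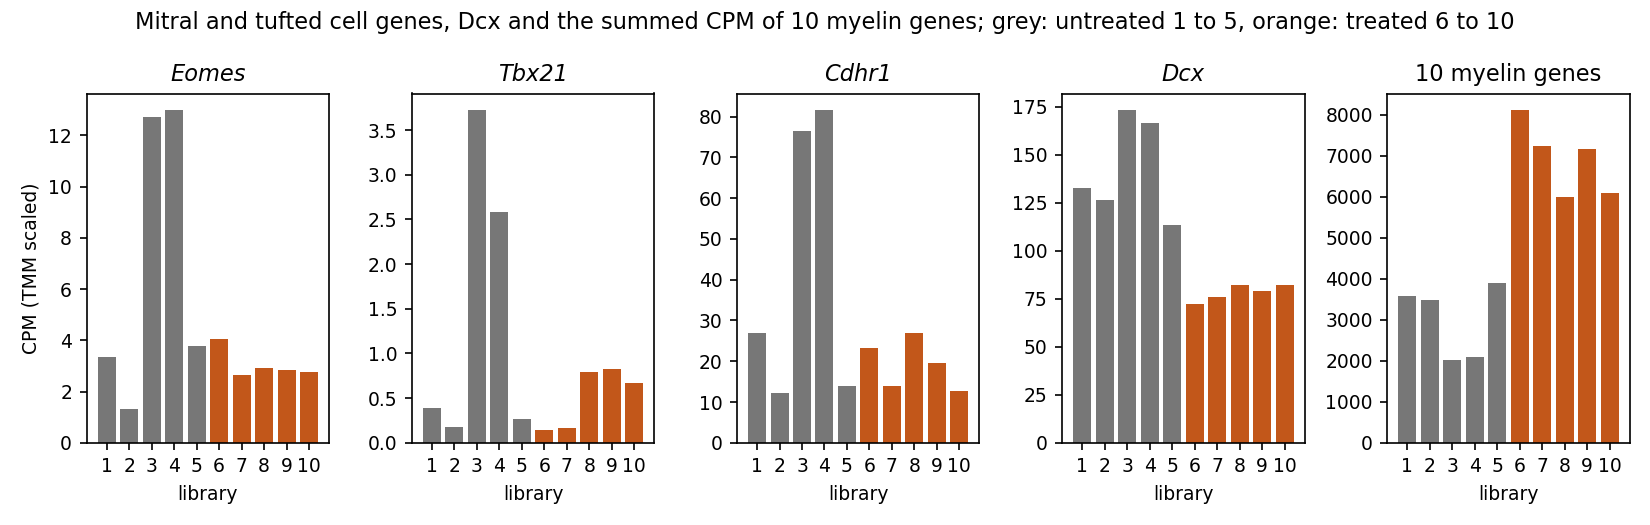
CPM of Eomes, of the mitral and tufted cell genes Tbx21 and Cdhr1, of Dcx and of 10 myelin genes summed, with 1 bar per library (grey, untreated 1 to 5; orange, treated 6 to 10). Untreated libraries 3 and 4 are the highest in Eomes, Tbx21, Cdhr1 and Dcx and the lowest in myelin genes, while Dcx is lower in all treated libraries than in untreated libraries 1, 2 and 5 too.

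Igfbpl1, an insulin-like growth factor binding protein-like gene of young neurons (ENSMUSG00000035551, chromosome 4, 45809468 to 45826923), was at 8.59, 8.23, 16.6, 8.36 and 9.39 CPM untreated and at 9.25, 2.65, 5.17, 8.35 and 10.7 CPM treated. Apart from untreated library 3, the untreated libraries were close together and the treated ones spread to both sides of them. The log2 fold change was -0.49 (SE 0.30, adjusted p = 0.319) and -0.26 without untreated libraries 3 and 4 (adjusted p = 0.730). Its relative Igfbp7 averaged 24.8 ± 2.91 and 24.0 ± 2.49 CPM in the same order (SD, n = 5 per group; adjusted p = 0.779).

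**Figure D3:**
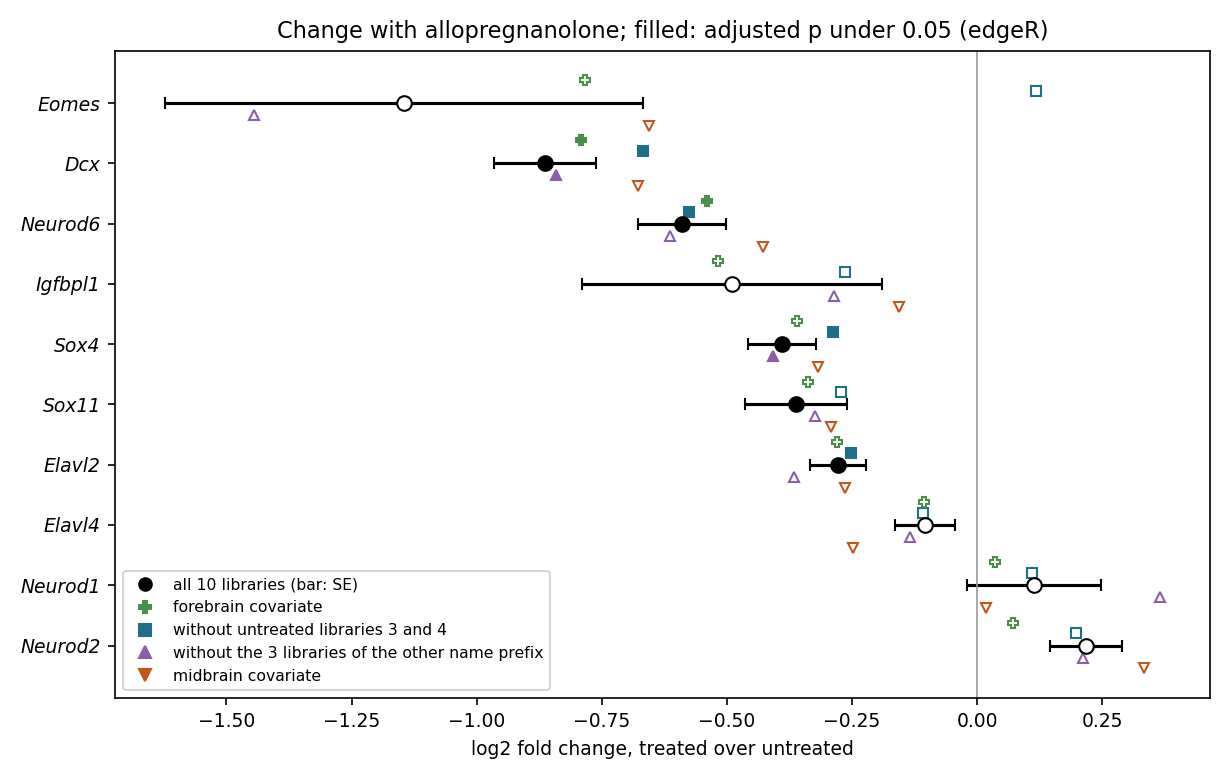
Log2 fold change of each gene, treated over untreated, in all 10 libraries (circles, with the SE) and under 4 other analyses, filled where the adjusted p was under 0.05. The 5 genes that fell stayed below 0 in each, Eomes crossed 0 without untreated libraries 3 and 4, and with the midbrain covariate no gene is filled.

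Divided by the merged exon length in kilobases, to compare levels between genes, the untreated means ran from 62.3 CPM per kb for Neurod6 through 31.8 for Neurod2, 24.6 for Sox4, 21.4 for Elavl4, 11.3 for Dcx, 10.0 for Neurod1, 8.49 for Elavl2, 5.42 for Sox11 and 3.15 for Igfbpl1 to 1.65 for Eomes. In treated libraries Neurod6 and Neurod2 were at 41.4 and 37.0 CPM per kb, and Dcx, at 6.20, was below Neurod1 at 10.9 and Elavl2 at 7.00. On the same scale Rbfox3, the nuclear marker NeuN of mature neurons, was at 51.2 CPM per kb untreated and 59.7 treated, and Camk2a, a kinase of mature excitatory neurons, at 258 and 322.

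Untreated library 3 held the highest untreated value for 5 of the 10 genes (Dcx, Sox4, Sox11, Neurod1 and Igfbpl1) and untreated library 4 for 3 (Neurod6, Elavl2 and Eomes). Dcx averaged 170 CPM in untreated libraries 3 and 4 and 124 CPM in untreated libraries 1, 2 and 5. Neurod6 differed less, with 136 and 132 CPM, and so did Elavl2, with 72.7 and 69.1 CPM. For Eomes the 2 means were 12.8 and 2.83 CPM.

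Ratios of 2 genes within a library do not depend on how libraries are scaled, and 5 were compared by a two-sided exact permutation test over all assignments of libraries to groups, whose smallest p is 0.00794. The ratio of Dcx to Rbfox3 counts was 0.473, 0.409, 0.610, 0.605 and 0.335 in untreated libraries 1 to 5 and 0.243, 0.193, 0.230, 0.227 and 0.243 in treated libraries 6 to 10. Every treated library was lower, with a difference in mean log2 ratio of -1.07 (SE 0.18, exact permutation p = 0.00794, the smallest possible, adjusted over 5 ratios 0.0198). Neurod6 to Neurod2 was 1.16 to 1.58 untreated and 0.610 to 0.874 treated, so the more counted of the 2 genes changed in all 5 treated libraries (difference in mean log2 ratio -0.82, SE 0.12, exact permutation p = 0.00794, adjusted 0.0198). Both ratios also differed without untreated libraries 3 and 4, by -0.83 and -0.78 on the log2 scale (adjusted exact permutation p = 0.0446 each).

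Elavl2 to Elavl4 was 0.583 to 0.664 untreated and 0.493 to 0.590 treated, lower than all untreated libraries in 4 of 5 treated ones (difference in mean log2 ratio -0.17, SE 0.06, exact permutation p = 0.0159, adjusted 0.0265). The call was lost without untreated library 4 (adjusted exact permutation p = 0.0661) or untreated library 5 (0.0529), and without untreated libraries 3 and 4 together (difference -0.14, adjusted exact permutation p = 0.179). Sox4 to Sox11 was 2.44 to 2.90 untreated and 2.24 to 3.26 treated (difference -0.02 in mean log2 ratio, SE 0.10, exact permutation p = 0.889). Neurod1 to Neurod2 was 0.224 to 0.328 untreated and 0.207 to 0.344 treated (difference -0.09, SE 0.17, exact permutation p = 0.603). The adjusted p of these 2 pairs were 0.889 and 0.754. Neither difference was larger than the spread between libraries.

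**Figure D4:**
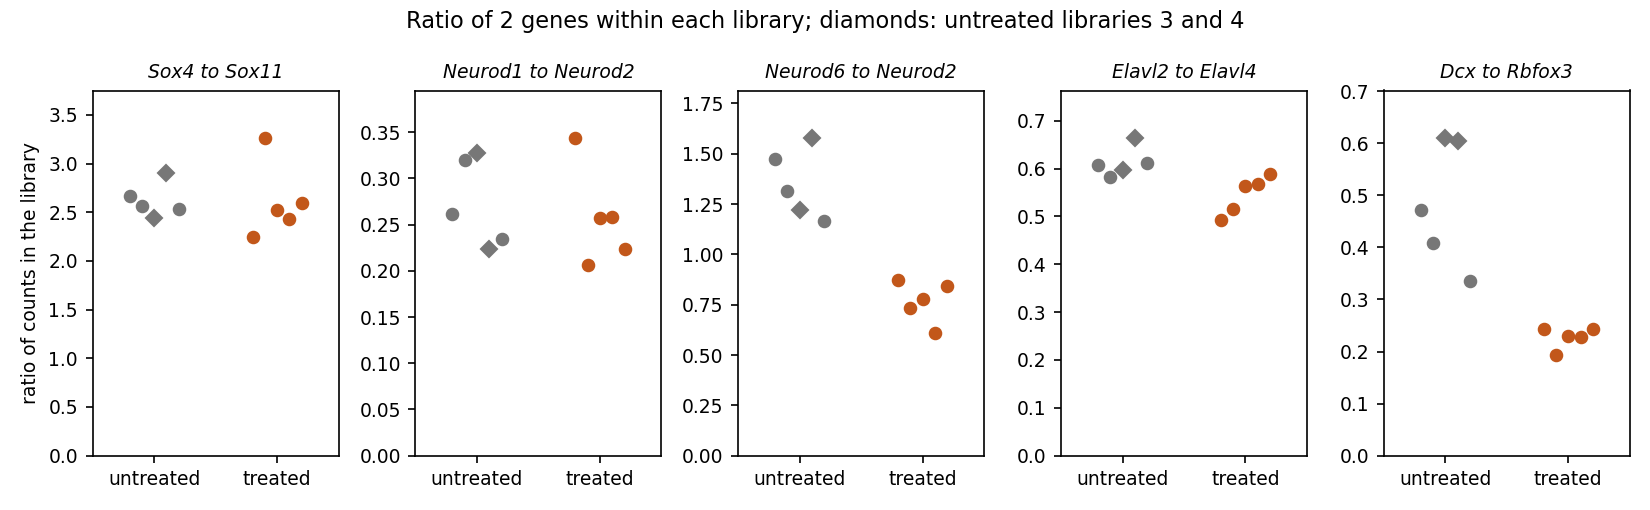
Ratio of the counts of 2 genes within each library, for 5 pairs, untreated (grey) and treated (orange), with diamonds for untreated libraries 3 and 4. Neurod6 to Neurod2 and Dcx to Rbfox3 are lower in all 5 treated libraries than in any untreated library, and the other 3 pairs overlap.

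Other genes of the same course, in 5 lists, moved to unequal degrees. Over all genes 4.65% were lower and 6.61% higher. Without untreated libraries 3 and 4, 0.743% of all genes (127) were lower and 253 genes were higher. Of 13 tested genes of the neurogenic cascade, which run from the progenitor factors Sox2, Pax6 and Hes1 through Neurog2 and Insm1 to Nhlh2, none passed in either direction (median log2 fold change 0.02). Neurog1 was below the count minimum. At an unadjusted p under 0.05, 3 of the 13 passed in edgeR's test, Sox2 and Pax6 as lower and Neurog2 as higher, and DESeq2 called none. The share of all genes at that unadjusted level is not given here, so no excess can be read from these 3.

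Of 24 genes of the migration machinery 10 fell and 3 rose (median log2 fold change -0.16). Cd24a, a surface glycoprotein of young neurons, fell 2.00-fold, with means of 114 ± 12.6 CPM in untreated and 57.1 ± 7.12 CPM in treated libraries (SD, n = 5 per group; adjusted p = 0.000107). Flna, an actin cross-linker needed for neurons to leave the ventricular zone, fell 1.47-fold, Rnd3, a small GTPase of migrating neurons, 1.40-fold, and Lrp8, a receptor for reelin, 1.25-fold. Polysialic acid on the adhesion molecule Ncam1 is a mark of migrating cells. Both enzymes that make it fell, St8sia2 (1.65-fold) and St8sia4 (1.28-fold), and so did Ncam1 (by 0.26 on the log2 scale), 3 genes singled out after their values were seen. Those that rose were Rnd2 (1.38-fold), Nde1 (1.22-fold) and the kinase Cdk5 (1.14-fold). Dclk1 and Dclk2, relatives of Dcx, missed the threshold (log2 fold change -0.13, SE 0.08, and -0.11, SE 0.05). Without untreated libraries 3 and 4 the list had 4 lower, against 0.743% of all genes, and none higher.

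Of 14 genes of projection neuron identity 2 fell, Bcl11b (1.24-fold) and Foxp2 (1.34-fold), both known from deep cortical layers and the striatum (median -0.18). Neither passed without untreated libraries 3 and 4, a setting where calls over all genes also dropped. Bcl11b was at 129 and 115 CPM in these 2 libraries and at 118 to 149 CPM in untreated libraries 1, 2 and 5. For Foxp2 the values were 37.8 and 42.4 against 36.2 to 43.8 CPM. Of 7 young interneuron genes 4 fell, among them Dlx1 (log2 fold change -0.58), Sp8 (1.82-fold) and Sp9 (1.31-fold), and the median was -0.39. None of the 7 passed without untreated libraries 3 and 4, where Dlx1 was at 70.5 and 76.9 CPM and Sp8 at 11.4 and 12.9 CPM, the highest of all libraries.

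Of 12 mature neuron genes 4 rose and 1 fell (median log2 fold change 0.23). The glycolytic enzyme Eno2 rose 1.31-fold, Camk2a 1.25-fold, the vesicle protein Syn1 1.25-fold and the neurofilament Nefh 1.57-fold, and the dendritic protein Map2 fell 1.14-fold. Rbfox3 averaged 298 ± 26.3 CPM in untreated and 348 ± 34.8 CPM in treated libraries (SD, n = 5 per group; log2 fold change 0.22, SE 0.08, adjusted p = 0.0733). Without untreated libraries 3 and 4 only 1 of the 12 rose and none fell, in a setting where calls over all genes also dropped, to 253 higher and 127 lower.

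**Figure D5:**
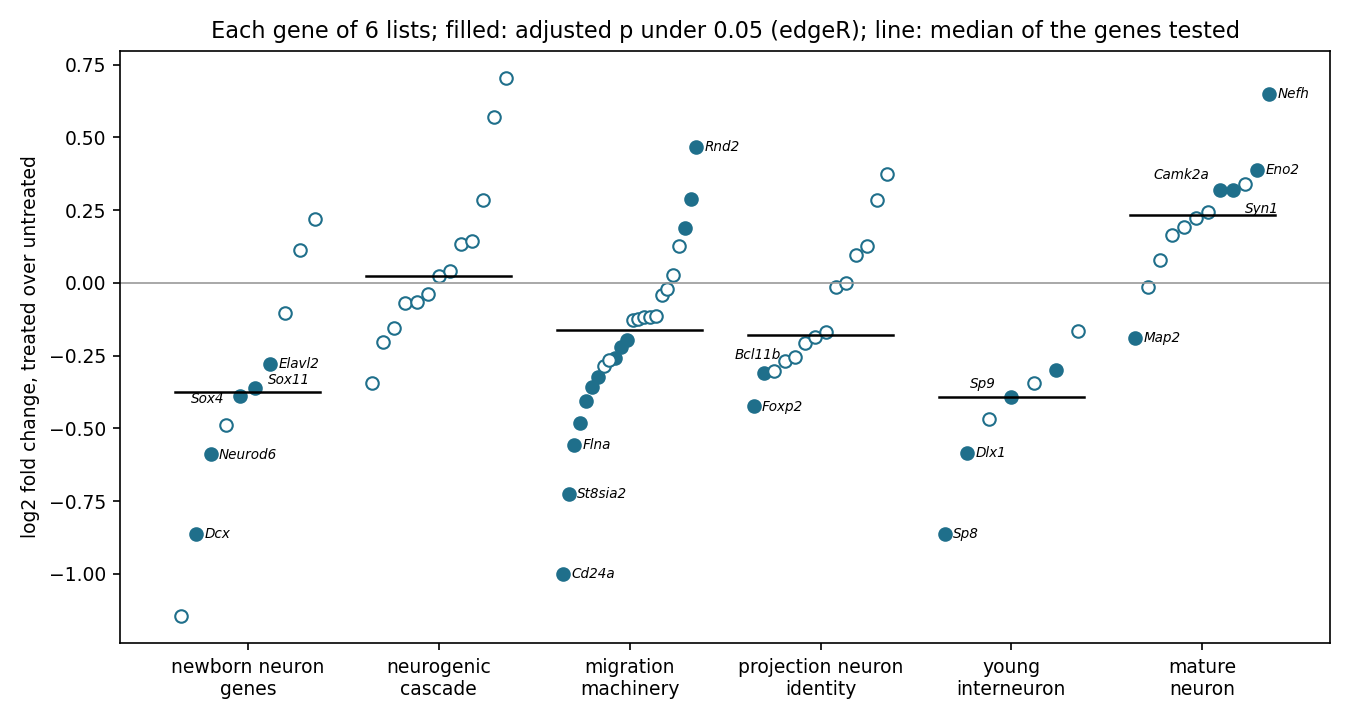
Log2 fold change of every tested gene in the newborn neuron set and in 5 lists of related genes, filled where the adjusted p was under 0.05, with the median of each list as a line. The medians are -0.38, 0.02, -0.16, -0.18, -0.39 and 0.23 from left to right.

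The 5 genes whose profile over the 10 libraries was closest to that of Dcx were Cxadr, Dpysl3, Pcdhb7, Fabp7 and Tubb2b, with root mean square differences of 0.13 to 0.17 in centred log2 CPM among 9727 genes compared (median 0.47). Cxadr encodes an adhesion protein of the immature brain, Dpysl3 a collapsin response mediator of growing axons, Pcdhb7 a protocadherin, Fabp7 a fatty acid carrier of radial glia and Tubb2b a tubulin of migrating neurons. Since their likeness to Dcx includes the difference between the groups, their lower levels are a description. Dpysl3 averaged 614 ± 77.5 CPM in untreated and 318 ± 30.0 CPM in treated libraries, and Fabp7 48.4 ± 8.90 and 27.5 ± 2.64 CPM (SD, n = 5 per group). Among the 7 other members with a mean of 10 CPM or more, which leaves out Eomes and Igfbpl1, the difference from Dcx was smallest for Neurod6, at 0.23, and Sox4, at 0.26.

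Markers of other cells and regions differed between the groups as well, where 6.61% of all genes were higher and 4.65% lower. All 10 myelin genes rose (2027 to 3905 CPM summed untreated, 6005 to 8113 CPM treated), as did 4 of 8 astrocyte genes (2576 to 2991 and 3305 to 3832 CPM), while 9 of 15 proliferation genes fell (111 to 176 and 81.6 to 94.1 CPM). Microglia and endothelial genes rose in 1 of 6 and 2 of 6 cases and none fell past the threshold. Log2 fold changes were negative for 4 of the 6 microglia genes (median -0.19) and 2 of the 6 endothelial genes (median 0.09). The part of these cell types in the members' result was not tested. Of 4 forebrain genes 1 rose, Lhx2, with sums of 319 to 371 CPM untreated and 311 to 355 CPM treated. With the forebrain mean as a covariate Dcx (adjusted p = 0.0155) and Neurod6 (0.0377) passed, 2 of 10 against 0.497% of all genes lower.

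Midbrain genes rose in 9 of 10 tested cases, with Pitx3 and Foxa2 below the count minimum, and the 12 summed to 11.2 to 25.2 CPM untreated and 19.1 to 116 CPM treated. With their mean as a covariate none of the 10 members passed, against 0.17% of all genes lower, and Dcx had a log2 fold change of -0.68 (adjusted p = 0.0803). Treated libraries 8 and 10 had midbrain sums of 19.1 and 20.4 CPM, within the untreated range. In these 2 libraries Dcx was at 82.2 and 82.3, Neurod6 at 92.6 and 109.5, Sox4 at 87.1 and 94.8 and Elavl2 at 57.9 and 61.0 CPM, all below the lowest untreated library. Midbrain sums were in part tied to the group, so midbrain content and treatment cannot be told apart here. The 2 libraries were singled out by their sums, and the part of midbrain tissue in the members' result was not tested.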

How the data were processed

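RNA of 10 whole brains, 1 library per pup, was compared between 5 untreated and 5 allopregnanolone-treated pups with hypoxic-ischemic injury. The authors deposited estimated counts (expected counts) per Ensembl gene, made with Partek on mm10 per the submitters' processing notes. Aligner, annotation and use of strand are not stated in the sources used here, and 86.8 to 87.6% of values above 0 were whole numbers. Counts were rounded. Genes with 10 or more counts in at least 5 libraries were kept (17101). TMM scaling and edgeR 4.0.16's quasi-likelihood test (R 4.3.3) with Benjamini-Hochberg adjustment over all kept genes gave adjusted p-values, called at 0.05. Positions come from GENCODE M21 (GRCm38), in which 55230 of 55471 identifiers were found. Tested on simulated data for 16904 genes of this comparison, the recovery was 70% for 1.5-fold and 97% for 2-fold differences, with 6.70% of calls on unchanged genes. The simulation changed only well counted genes and drew libraries independently, with no difference shared by some libraries, such as untreated 3 and 4. No fold below 1.5 was tried, so the recovery does not cover the changes of Sox4, Sox11 and Elavl2. Alternatives were DESeq2 1.42.0, library totals alone, no count filter, covariates (Y-linked, forebrain, midbrain, and Tbx21 with Cdhr1), the name prefix and leaving out libraries. The Tbx21 with Cdhr1 covariate and leaving out untreated libraries 3 and 4 together were chosen after seeing the data. The members and lists were chosen with earlier results of these data known. Named genes were all members, 8 paralogs or partners, up to 4 genes per list past the threshold with the smallest p, the 5 genes closest to Dcx among those with a mean of 10 CPM or more, and Rbfox3. Some genes of the lists are counted but not reported by name here.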

Additional observations from a re-analysis of the deposited data

Results flagged for a closer look

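In 162 sets of 5 libraries (each named gene, sum and ratio in each group), 10 had a highest or lowest library whose gap to the next, divided by the range, was above Dixon's value of 0.71. Chance flags about 1 in 20 sets. Of the 20 sets for the 10 newborn neuron genes 3 did so by level: Sox11 in untreated library 3 (55.0 CPM, highest), Igfbpl1 in untreated library 3 (16.6 CPM, highest) and Eomes in treated library 6 (4.06 CPM, highest). The log2 ratio of Dcx to Rbfox3 was lowest in treated library 7, at -2.38. Among related genes, Cd24a was lowest in untreated library 5 at 92.2 CPM, Rnd3 highest in untreated library 4 at 31.2 CPM, Sp8 highest in treated library 6 at 5.79 CPM, Mki67 highest in untreated library 1 at 38.5 CPM and Dpysl3 lowest in treated library 7 at 265.9 CPM. The forebrain sum was lowest in treated library 6 at 310.9 CPM.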

How the results depend on the processing

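Dcx, Sox4, Neurod6 and Elavl2 passed with each single library left out, in 10 of 10 cases, and Sox11 in 4 of 10. No paired analysis was possible because the groups share no replicate numbers. With forebrain, midbrain, prefix and untreated 3 and 4 settings in that order, genes higher numbered 165, 76, 74 and 253 and lower 85, 29, 23 and 127, against 1131 and 795. Library totals alone gave 783 higher and 1451 lower (the median of all genes moved to -0.06), and the Tbx21 with Cdhr1 covariate 470 lower. Members lower numbered 2, 0 and 2 with the forebrain covariate, the midbrain covariate and the prefix libraries left out, and DESeq2 called 1 higher. In the same order of 4 settings, migration genes lower numbered 3, 1, 3 and 4 and higher 0 in each. Migration genes higher numbered 1 with library totals, no filter and the Tbx21 with Cdhr1 covariate. Projection genes lower numbered 5 with library totals and 0 with the 4 settings and the Tbx21 with Cdhr1 covariate, and 1 was higher with no filter and with DESeq2. Interneuron genes lower numbered 0, 0, 1 and 0, and 2 with the Tbx21 with Cdhr1 covariate. Mature genes higher numbered 0, 0, 0 and 1, and lower 0 with these 4 settings, no filter and the Y-linked and Tbx21 with Cdhr1 covariates. With library totals 1 neurogenic gene was lower.

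With single libraries left out, counts ran from 642 to 1346 higher and 435 to 978 lower for all genes, 0 to 1 and 4 to 6 for members, 0 and 0 to 2 for neurogenic, 0 to 3 and 7 to 10 for migration, 0 to 2 and 0 to 3 for projection, 0 and 1 to 6 for interneuron and 2 to 6 and 0 to 1 for mature genes. Differences in log2 ratio ran from -0.10 to 0.04 (Sox4 to Sox11, with 0.02 without untreated 4, 0.036 without treated 6 and 0.0068 without treated 9), -0.20 to -0.02 (Neurod1 to Neurod2), -0.87 to -0.74 (Neurod6 to Neurod2), -0.20 to -0.13 (Elavl2 to Elavl4) and -1.19 to -0.98 (Dcx to Rbfox3). Signs turned for Eomes (0.12) and Sox4 to Sox11 (0.00014) without untreated 3 and 4, Neurod1 to Neurod2 (0.15) without the prefix libraries, Elavl1 (-0.023 with library totals, -0.043 with the midbrain covariate, -0.010 without untreated 3 and 4, and -0.0034 to 0.058 with single libraries left out, the lowest without untreated 3) and Igfbp7 (0.087 with the forebrain covariate and -0.093 to 0.0097 with single libraries left out, the highest without untreated 1). Without the prefix libraries, which leaves 2 against 5 and few assignments, no ratio passed the permutation test. Any ratio could pass there only if all 5 reached the smallest possible p, so the missing calls are no result about the ratios. In that setting the ratios of Neurod6 to Neurod2, Elavl2 to Elavl4 and Dcx to Rbfox3 differed by -0.83, -0.23 and -0.99. Elavl2 to Elavl4 differed by -0.14 without untreated 3 and 4. The causes were not tested. Depth limits Eomes most, with 31 to 321 counts.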

Other observations

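Genes of the dentate gyrus and the cerebellum, where neurons are still made after birth, gave the following values, beside 6.61% of all genes higher. Of 4 dentate gyrus genes 2 rose, C1ql2 and Lct, and the 4 summed to 43.0 to 77.7 CPM untreated and 46.9 to 111 CPM treated. Of 7 tested genes of cerebellar granule and unipolar brush cells 1 rose, Barhl1, with sums of 121 to 214 and 100.2 to 235 CPM. Gabra6, a receptor subunit of cerebellar granule cells, was below the count minimum and was at 1.11 and 1.05 CPM in treated libraries 9 and 10 and at most 0.17 CPM in the other 8.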
